A study of Mus musculus with 18 samples.

Results

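The 10 genes described here lie on the mouse X chromosome and take part in innate or B cell signalling: Tlr7, Btk, Cybb, Was, Irak1, Ikbkg, Il2rg, Msn, Bcor and Cfp. They were taken by name from the read count tables, and all 10 were found, out of 28374 genes matched between the tables of both alleles and out of 1048 such genes on the X chromosome. The samples were CD23+ B cells from the spleen of female F1 mice of a 129S1 by Cast cross that carry an Xist deletion in heterozygous form (genotype label "F1 129S1/Cast; Xist+/-"). Age is not given in the labels. All 6 samples share this genotype, in which the Cast X chromosome is the inactive one in every cell, per the labels. Of these, 3 samples were naive and untreated, and 3 were kept in vitro with CpG DNA (1 µM, 24 h), the ligand of the endosomal receptor TLR9. The labels do not say whether the samples of a group came from separate mice, so p-values measure the spread between these samples only. The series lists 18 samples, and the other 12 are not analysed here.

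In female mammals 1 X chromosome per cell is silenced under the control of the Xist RNA, which coats that chromosome. Some X-linked genes keep a measurable output from the silenced copy, and X-linked genes of immune signalling have drawn interest because such output can raise their dose in female immune cells. The 10 genes act at different steps. Tlr7 senses single-stranded RNA in endosomes, Irak1 is a kinase below the Toll-like receptors, and Ikbkg (NEMO) is the regulatory subunit of the IKK complex that releases NF-kB. Btk relays the B cell receptor signal, and Il2rg is the chain shared by several cytokine receptors. Cybb is the catalytic subunit of the phagocyte NADPH oxidase, and Cfp (properdin) stabilises the convertase of the alternative complement pathway. Was (WASP) and Msn (moesin) link signals to the actin cytoskeleton, and Bcor is a corepressor that partners BCL6 and a variant Polycomb complex.

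Sequences upstream of 3 of the genes are shown because the results turn on them: the Cast share of Was was higher after stimulation, that of Cfp was lower, and the level of Il2rg fell on both alleles. Each is the 250 bases before the RefSeq start, 5′ to 3′ on the gene's strand, in GRCm38.p6. Capitals mark GGAAGT on either strand, which is 1 form of the GGAA core that ETS-family factors recognise.
Was, chrX:8090492-8090741, minus strand: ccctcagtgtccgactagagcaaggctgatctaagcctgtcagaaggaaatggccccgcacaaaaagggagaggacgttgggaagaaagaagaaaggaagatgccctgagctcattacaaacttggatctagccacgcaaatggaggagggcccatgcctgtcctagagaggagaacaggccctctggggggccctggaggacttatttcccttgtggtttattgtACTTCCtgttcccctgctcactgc
Cfp, chrX:20931556-20931805, minus strand: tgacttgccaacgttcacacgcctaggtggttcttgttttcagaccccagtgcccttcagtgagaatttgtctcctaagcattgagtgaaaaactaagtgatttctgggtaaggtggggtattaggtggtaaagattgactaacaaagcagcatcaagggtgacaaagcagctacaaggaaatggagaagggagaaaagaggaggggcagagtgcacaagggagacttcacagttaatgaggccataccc
Il2rg, chrX:101268256-101268505, minus strand: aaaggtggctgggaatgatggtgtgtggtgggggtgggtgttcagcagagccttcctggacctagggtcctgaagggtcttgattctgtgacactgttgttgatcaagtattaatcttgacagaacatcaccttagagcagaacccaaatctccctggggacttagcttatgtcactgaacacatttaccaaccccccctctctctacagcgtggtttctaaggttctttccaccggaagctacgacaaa
In these letters of the reference build GGAAGT lay 24 bases before the start of Was and was not found for Cfp or Il2rg. The letters of Cfp hold GGAAAT and those of Il2rg hold GGAAGC, each 1 base away from GGAAGT. The shorter GGAA, which is not marked, is in the letters of all 3. GGAAGT was present in 19.7% of the 32851 RefSeq windows of this length. A window was given for 9 of the 10 genes, and 3 of them (Was, Irak1 and Ikbkg) held GGAAGT in at least 1 window. The windows of Was, Cfp and Il2rg held 4, 2 and 3 CG dinucleotides, against a median of 6 over all windows. Such numbers are common, since 49.6% of all windows held at most 5. Over the windows of the 9 genes the number ran from 0, in 1 window of Ikbkg, to 18 for Msn. These matches describe the letters of the reference build and do not show that a factor binds. The sequences of the parental strains were not used, so whether either allele in these samples carries the matches was not tested.

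Depth and cell content bear on all values. The gene counts of a sample summed to 1987266 up to 2928236 reads for the 129 allele, and for the Cast allele to 2465073 up to 3321753. Xist, the gene that carries the deletion, had a Cast share (Cast reads over 129 plus Cast reads) of 86.4 to 88.9% in the 6 samples, so most but not all of its reads were given to the Cast allele. Macrophage markers moved with the groups. Of 17 listed, 16 were in the 129 tables, and all 15 that could be tested fell with stimulation. Their summed level was 7503, 3630 and 4387 CPM (counts scaled to library size) in naive samples 1 to 3 and 25.7 to 35.3 CPM in the stimulated samples, where Fcna and Cd163 had no reads. T and NK cell markers summed to 30.1 to 45.8 CPM in naive and to at most 0.714 CPM in stimulated samples, but most of the naive sum was Cd4 (30.5 ± 9.27 CPM), while Cd3e, Cd3d and Cd3g were at most at 1.44 CPM on average. Neutrophil markers went from 4.95 to 15.9 CPM to at most 0.693 CPM, and erythroid markers from 40.01 to 108 CPM to 1.04 to 1.43 CPM. Dendritic cell markers summed to 54.0 to 98.2 CPM and 41.9 to 71.0 CPM, and plasma cell markers to 323 to 512 CPM and 336 to 377 CPM. Members of these lists moved apart, since Itgax, Siglech and Jchain fell while Prdm1 and Xbp1 rose. The B cell markers were present in all samples, at 9524 to 11837 CPM in naive and 3324 to 4091 CPM in stimulated samples, and all 9 fell, among them Fcer2a, which encodes CD23 (log2 change -5.22, SE 0.33). In such bulk samples fewer cells of a type and less RNA per cell cannot be told apart. The part of these markers in the changes below was not tested.

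On the 129 allele, the active one, stimulation lowered 6 of the 9 genes that could be tested and raised none (edgeR quasi-likelihood test, adjusted p of 0.05 over all 10581 tested genes). Over all tested genes 55.2% passed this test, 27.0% of the tested genes being lower, and over 316 tested X-linked genes 58.5% passed, with 35.1% higher and 23.4% lower. The median log2 change of the 9 genes was -0.72, against -0.01 over all tested genes and 0.17 over the X-linked ones. The 6 genes were Tlr7, Cfp, Il2rg, Ikbkg, Msn and Was. DESeq2 called the same 6, without a share over all genes in DESeq2 to set beside this count. On the Cast allele 6 of the genes had enough reads for a test, and 4 passed: Cfp, Il2rg and Msn were lower and Was was higher. The background there was 62.2% of 10365 tested genes, with 31.5% lower and 30.7% higher. Among 96 tested X-linked genes in the Cast tables, 45.8% were higher and 10.4% lower, with a median log2 change of 0.76, against -0.44 over the 6 genes. A gene could enter this set through its reads in 1 group alone, and how far this shaped the median was not tested. Over 230 X-linked genes the median Cast share was 2.34 to 3.68% in naive and 2.56 to 3.78% in stimulated samples.

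**Figure D1:**
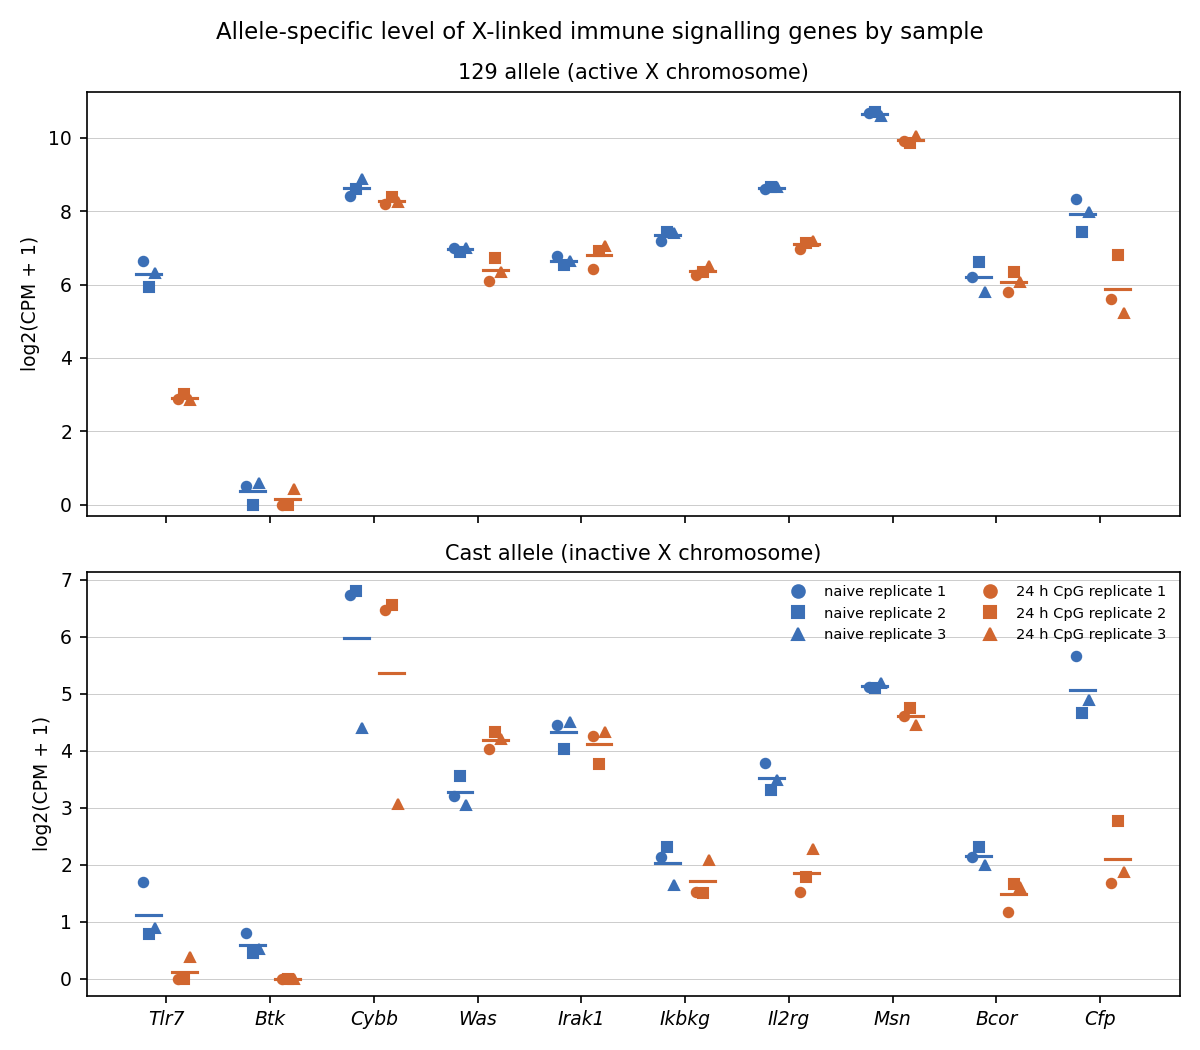
Level of each gene in every sample as log2(CPM + 1), from the 129 tables (top) and the Cast tables (bottom), with naive samples in blue, stimulated samples in orange, and short lines at the group means. In the top panel Tlr7, Cybb, Ikbkg, Il2rg, Msn, Was and Cfp sit lower in all stimulated samples, and in the bottom panel Cybb replicate 3 lies far below replicates 1 and 2 in both groups.

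Tlr7 (chrX:167303380-167330574, minus strand, RefSeq annotation of GRCm38) changed most. On the 129 allele, naive cells had 234, 145 and 159 reads and stimulated cells 18, 20 and 18. Every stimulated sample was far below every naive sample. The level fell from 79.6 ± 20.1 to 6.57 ± 0.42 CPM (SD, n = 3 each), 12.0-fold lower, with a log2 change of -3.59 (SE 0.25, adjusted p = 2.88e-05 in edgeR). Its naive levels of 99.95, 59.8 and 79.2 CPM had the same order over replicates as the macrophage markers, and its stimulated levels of 6.43, 7.04 and 6.24 CPM did not. On the 129 allele the naive levels of Cfp, Irak1 and Was had that order too. Those of Cybb, Il2rg, Ikbkg, Msn and Bcor did not. An order of 3 values can match by chance, and a link to the markers was not tested. The Cast allele gave 6, 2 and 2 reads in naive samples and 0, 0 and 1 in stimulated samples. The naive Cast shares were therefore 2.50%, 1.36% and 1.24%. In the stimulated samples a count of 0 among 18 and among 20 reads allows shares of up to 16.7% and 15%, so a change of the share was not detectable at this depth.

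Of 14 tested partners of Tlr7 and Tlr9, 1 rose, 6 fell and 7 did not pass on the 129 allele (median log2 change -0.45). Irf7, a transcription factor below the endosomal receptors, fell most of those called (log2 change -5.03, SE 0.27). Map3k7, the kinase TAK1, rose by 0.50 (SE 0.12, adjusted p = 0.00983 in edgeR). Without both samples numbered 1 or both numbered 3, Map3k7 had an adjusted p of 0.0887 or 0.0730 in edgeR.

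Irak1 (chrX:74013914-74023921, minus strand) had 253, 221 and 200 reads on the 129 allele in naive and 237, 343 and 377 in stimulated samples. The groups overlapped, with 99.6 ± 8.45 and 112 ± 24.2 CPM (log2 change 0.17, SE 0.18, adjusted p = 0.459 in edgeR). On the Cast allele it had 56, 43 and 51 reads and then 58, 41 and 65 (log2 change -0.22, SE 0.26, adjusted p = 0.479 in edgeR). Its Cast share was high in every sample, at 18.1%, 16.3% and 20.3% in naive and 19.7%, 10.7% and 14.7% in stimulated cells. Stimulated replicate 1 lay among the naive values. Its neighbour Hcfc1, 46.9 kb away, had far lower shares, at 1.83% ± 0.527 in naive and 1.95% ± 0.581 in stimulated samples (SD, n = 3 each).

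Ikbkg (chrX:74393233-74456792, plus strand) had 340, 420 and 339 reads on the 129 allele in naive and 213, 226 and 260 in stimulated samples, without overlap. The level fell from 162 ± 15.1 to 81.9 ± 7.31 CPM (SD, n = 3 each), a log2 change of -0.99 (SE 0.13, adjusted p = 0.000530 in edgeR). The gene overlaps G6pdx on the opposite strand, and the use of strand in the counting is not stated, so reads of the shared stretch cannot be told apart. The Cast allele gave 5 to 11 reads per sample and was not tested alone. Of 11 tested IKK and NF-kB genes, 1 rose, 5 fell and 5 did not pass (median log2 change -0.64), or 2 rose with the replicate number as a block. Nfkbie, an inhibitor of NF-kB, fell by 2.14 (SE 0.15) on the log2 scale. Nfkbia, another such inhibitor, rose by 0.67 (SE 0.17) on the 129 allele, and its Cast value of 0.25 was not called (adjusted p = 0.351 in edgeR).

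Btk (chrX:134542334-134583628, minus strand) was barely counted. The 129 tables held 1, 0 and 1 reads in naive and 0, 0 and 1 in stimulated samples, and for the Cast allele the counts were 2, 1 and 1 and then 0 in all 3. No share, fold or test can be given for it from these tables. All 14 listed partners in B cell receptor signalling could be tested on the 129 allele, and 9 fell and 5 did not pass (median log2 change -0.91). Cd79a, the Ig-alpha chain of the receptor, fell most (log2 change -2.08, SE 0.14), from 1088 ± 32.6 to 257 ± 41.1 CPM (SD, n = 3 each).

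Il2rg (chrX:101264385-101268255, minus strand) fell on both alleles. It had 911, 984 and 807 reads on the 129 allele in naive and 350, 395 and 417 in stimulated samples, so that all stimulated values were below all naive ones. The level went from 399 ± 8.74 to 136 ± 10.1 CPM (SD, n = 3 each), 2.93-fold lower (log2 change -1.55, SE 0.11, adjusted p = 2.85e-05 in edgeR). The Cast allele gave 34, 25 and 24 reads and then 6, 8 and 13, also without overlap (log2 change -1.95, SE 0.38, adjusted p = 0.00166 in edgeR). Its Cast share was 1.69 to 3.60% over the samples, near that of the median X-linked gene. Whether reads of the 129 allele are among these Cast reads was not tested. An annotated gene on the same strand, Gm20489, overlaps Il2rg, and the division of reads between them was not tested. Among 11 tested receptor chains and transducers that work with the shared chain, 1 rose, 6 fell and 4 did not pass (median log2 change -0.36), or 2 rose with the replicate block. Il2ra, the IL-2 receptor alpha chain, rose by 2.37 (SE 0.24), from 8.24 ± 1.14 to 42.8 ± 8.07 CPM. Il9r fell by 5.36 (SE 0.55) on the log2 scale.

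Cfp (chrX:20925454-20931555, minus strand) fell on both alleles. On the 129 allele it had 755, 420 and 510 reads in naive and 133, 317 and 105 in stimulated samples. The groups did not overlap, but stimulated replicate 2 stood well above the other two. The level went from 250 ± 74.7 to 65.1 ± 40.6 CPM (SD, n = 3 each), with a log2 change of -1.94 (SE 0.48, adjusted p = 0.0155 in edgeR). This call was lost with the replicate block (adjusted p = 0.111 in edgeR), without the low-count filter (adjusted p = 0.0682 in edgeR), and without stimulated replicate 1 (adjusted p = 0.0540 in edgeR). It was also lost without both samples numbered 1 or numbered 3 (adjusted p = 0.131 and 0.0770 in edgeR). Without stimulated replicate 2, or without both samples numbered 2, the log2 change was -2.58 or -2.81 (adjusted p = 0.00137 and 0.000733 in edgeR). On the Cast allele 133, 68 and 67 reads became 7, 19 and 9, a 9.55-fold lower level (log2 change -3.25, SE 0.42, adjusted p = 1.44e-04 in edgeR). This call held in all alternatives computed for it. The difference between the alleles did not pass its main test, without a replicate block (adjusted p = 0.0539 in edgeR and 0.108 in DESeq2). With the replicate block it passed (adjusted p = 0.000588 in edgeR). The naive 129 levels of Cfp, 322, 173 and 254 CPM, had the order of the macrophage markers over replicates, while its stimulated levels of 47.5, 112 and 36.4 CPM did not. As given for Tlr7, some of the other genes had this naive order and some did not, and a link was not tested. Of the alternative complement pathway, 3 listed genes could be tested and all 3 fell. C3, the central complement protein, fell by 5.87 (SE 0.50) on the log2 scale.

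**Figure D2:**
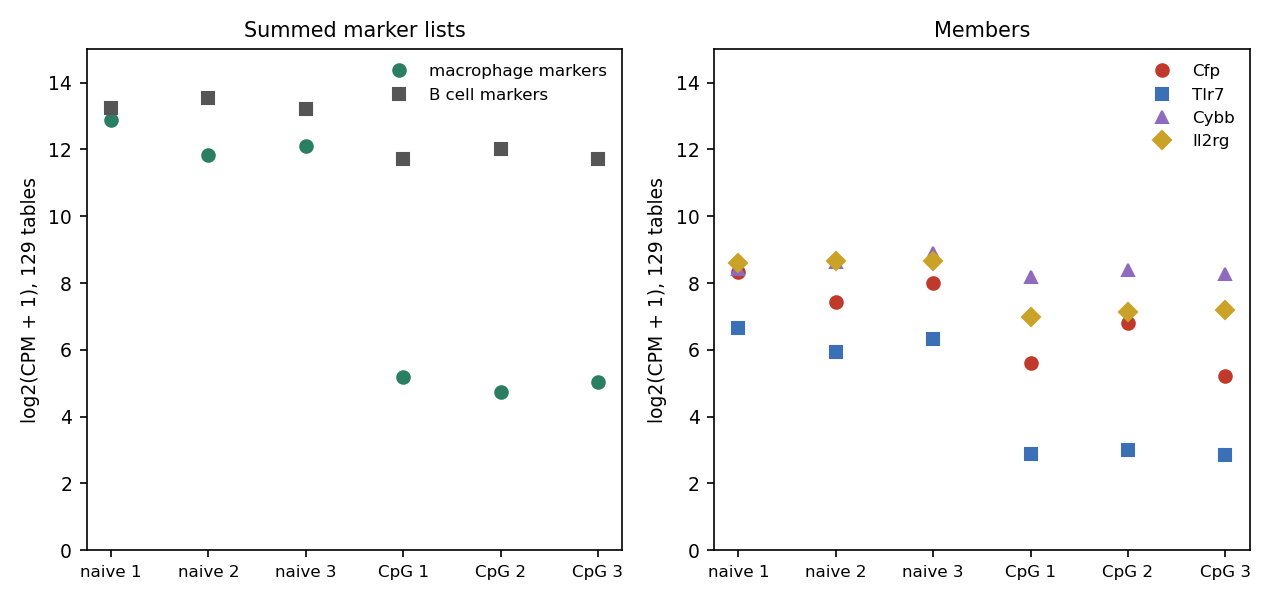
Summed macrophage and B cell markers (left) and the levels of Cfp, Tlr7, Cybb and Il2rg (right) in each sample, as log2(CPM + 1) from the 129 tables. The macrophage sum drops from 3630 to 7503 CPM in naive samples to 25.7 to 35.3 CPM after CpG, Cfp and Tlr7 are highest in naive sample 1, and Cybb changes little.

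Cybb (chrX:9435252-9487766, minus strand) was counted deeply on the 129 allele, with 791, 950 and 951 reads in naive and 814, 951 and 881 in stimulated samples. Its 129 level was 401 ± 68.3 and 310 ± 22.4 CPM (SD, n = 3 each), without overlap, with a log2 change of -0.37 (SE 0.14, adjusted p = 0.0619 in edgeR). With the replicate block the adjusted p was 0.0204 in edgeR, and without naive replicate 1 it was 0.0316 in edgeR. The Cast allele had 282, 307 and 47 reads in naive and 279, 305 and 25 in stimulated samples. Replicate 3 was low in both groups. The Cast shares were 26.3%, 24.4% and 4.71% in naive samples, with 95% Wilson intervals of 23.7 to 29.0%, 22.1 to 26.9% and 3.56 to 6.21%. In stimulated samples they were 25.5%, 24.3% and 2.76%, with intervals of 23.0 to 28.2%, 22.0 to 26.7% and 1.88 to 4.04%. The difference thus followed the replicate number, not the treatment, and within each number stimulation moved the share by -0.76, -0.14 and -1.95 percentage points. On the 129 allele replicate 3 was not the lowest of either group.

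A search made after these values were seen asked which X-linked genes had a replicate number whose intervals lay apart from those of both other numbers in both groups. Among 184 X-linked genes that reached 30 reads in all 6 samples, replicate 3 was lower for 1 gene, Cybb, and higher for 3, Piga, Tsc22d3 and Tspyl2. No gene was set apart in this way by replicate 1 or 2. Tsc22d3 had shares of 25.6% and 25.5% in replicate 3 and of at most 4.41% in the others. The search left out autosomal genes, and some of these also split by number. The autosomal Tlr9 had 38, 29 and 192 reads on the 129 allele in naive and 18, 16 and 155 in stimulated samples. Its Cast reads were 284, 291 and 115 and then 134, 127 and 71. The Cast to 129 ratios of same-numbered samples deviated together over 10364 genes on all chromosomes (r of 0.526, 0.432 and 0.518). Over 275 X-linked genes r was 0.187, 0.136 and 0.235. The nearest measured neighbours of Cybb did not share its pattern. Ftsj1 ranged from 0 to 2.86% and Dynlt3 from 0.610 to 5.07% over the 6 samples. Of the other oxidase subunits and their Rac partners, 1 rose, 4 fell and 1 did not pass of 6 tested on the 129 allele (median log2 change -0.68). Rac1 rose by 0.36 (SE 0.11, adjusted p = 0.0270 in edgeR) on the log2 scale. Leaving out 1 or 2 samples took the adjusted p of Rac1 in edgeR to as much as 0.230.

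**Figure D3:**
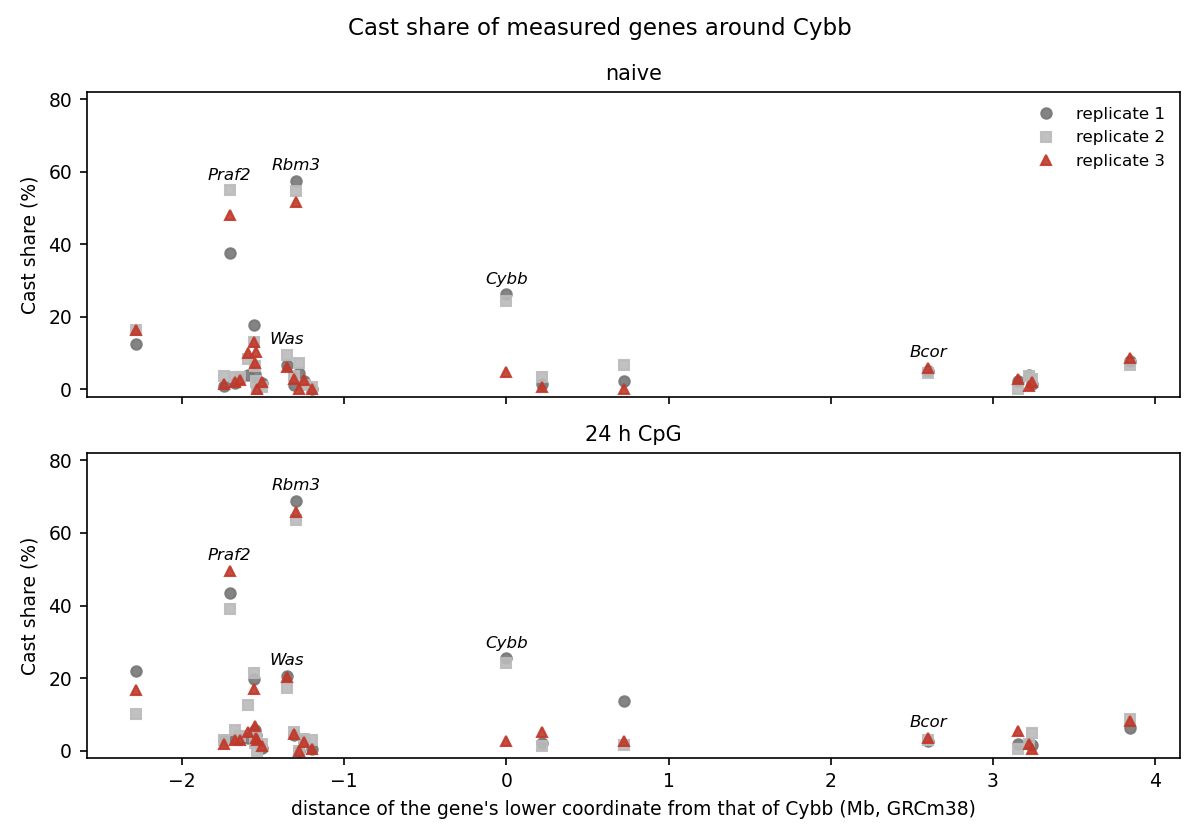
Cast share of every X-linked gene with enough reads near Cybb, by distance from it in Mb, with naive samples above, stimulated samples below, and replicate 3 as red triangles. Replicate 3 of Cybb lies at 4.71% and 2.76% while replicates 1 and 2 lie between 24.3 and 26.3%, and the nearest gene on either side lies low in all replicates.

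Was (chrX:8081466-8090491, minus strand) moved in opposite directions on the 2 alleles. On the 129 allele it had 299, 285 and 253 reads in naive and 188, 300 and 231 in stimulated samples. The levels, 124 ± 5.43 and 84.2 ± 19.6 CPM (SD, n = 3 each), did not overlap, and the log2 change was -0.55 (SE 0.18, adjusted p = 0.0306 in edgeR). That call was lost when any single sample other than stimulated replicate 2 was left out (adjusted p from 0.0556 to 0.0989 in edgeR), and without both samples numbered 1 or 3 (0.182 and 0.159). On the Cast allele 22, 30 and 17 reads became 49, 62 and 59, and all stimulated values were above all naive ones. The level rose from 8.75 ± 1.81 to 17.2 ± 1.83 CPM (log2 change 0.97, SE 0.26, adjusted p = 0.0101 in edgeR), a call lost only without both samples numbered 3 (adjusted p = 0.0754 in edgeR). The Cast share was 6.85%, 9.52% and 6.30% in naive samples and 20.7%, 17.1% and 20.3% in stimulated ones. In every pair of same-numbered samples the stimulated share was higher, by 13.8, 7.60 and 14.0 percentage points. The nearest measured genes had low shares, with Hdac6 at 1.54% ± 0.701 and 1.32% ± 0.671 and Wdr13 at 2.64% ± 1.27 and 4.59% ± 0.450 (SD, n = 3 each). Wdr13 was also higher after stimulation without overlap. Rbm3, the next measured gene beyond Wdr13, had high shares that rose without overlap. They were 57.5%, 54.7% and 51.7% in naive and 68.9%, 63.5% and 65.9% in stimulated samples. Beyond it, Tbc1d25 and Ebp had at most 7.25% and 3.23%. Of 11 tested partners of WASP in actin assembly, 2 fell, none rose and 9 did not pass (median log2 change -0.29). With the replicate block 4 fell and 1 rose, without a share over all genes under that block to set beside these counts. Dock8, an activator of CDC42, fell by 1.37 (SE 0.13) on the log2 scale.

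Msn (chrX:96096045-96168553, plus strand) had the most reads of the 10 genes. On the 129 allele it had 3807, 4082 and 3132 reads in naive and 2685, 2666 and 3071 in stimulated samples. Adjusted for depth the groups did not overlap, at 1623 ± 62.3 and 987 ± 67.6 CPM (SD, n = 3 each), a log2 change of -0.72 (SE 0.11, adjusted p = 0.000906 in edgeR). The Cast allele fell in parallel, from 90, 93 and 83 reads to 75, 84 and 71 (log2 change -0.55, SE 0.17, adjusted p = 0.0208 in edgeR). The Cast call did not hold without the low-count filter (adjusted p = 0.0921 in edgeR) or in 6 of 9 fits with samples left out (up to 0.157). These were the fits without naive replicate 1 or 3, without stimulated replicate 1 or 3, and without both samples numbered 1 or 3. The Cast share stayed between 2.23 and 3.05% in all 6 samples, near that of the median X-linked gene. How a read was given to a strain is not stated. Whether reads of the 129 allele are among these Cast reads was not tested. The next measured gene, Las1l, had shares of 15.7% ± 8.57 and 23.2% ± 5.73 (SD, n = 3 each). Of 7 tested partners of the ezrin, radixin and moesin family, 2 rose, 2 fell and 3 did not pass (median log2 change -0.17). Cd44, an adhesion receptor, rose by 3.16 (SE 0.34), and Stk10, a kinase that phosphorylates the family, fell by 1.81 (SE 0.11) on the log2 scale.

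Bcor (chrX:12036737-12160516, minus strand) had 172, 234 and 109 reads on the 129 allele in naive and 152, 229 and 193 in stimulated samples, with overlap (log2 change -0.15, SE 0.24, adjusted p = 0.613 in edgeR). The Cast allele gave 9, 11 and 7 reads and then 4, 7 and 7. Of 7 tested partners 1 rose, 2 fell and 4 did not pass (median log2 change -0.05), or 3 rose with the replicate block. Yaf2, a Polycomb subunit, rose by 1.14 (SE 0.15), and Ring1, an E3 ligase of the complex, fell by 0.99 (SE 0.27, adjusted p = 0.0158 in edgeR) on the log2 scale. These are 129 values, and on the Cast allele Ring1 changed by -0.46 and was not called (adjusted p = 0.105 in edgeR). Without naive replicate 1, without stimulated replicate 1, or without both samples numbered 1 or 3, Ring1 had an adjusted p of 0.0515 to 0.107 in edgeR.

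**Figure D4:**
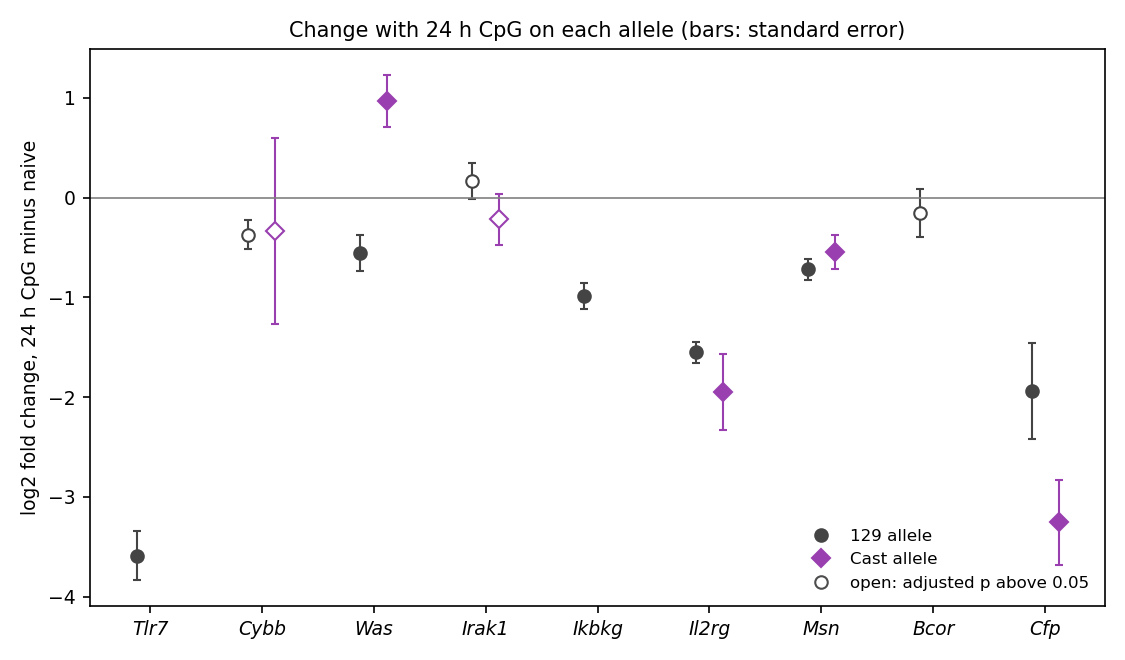
Log2 fold change from naive to 24 h CpG on the 129 allele (grey circles) and the Cast allele (purple diamonds) for the 9 genes that could be tested, with standard errors and open symbols where the adjusted p was above 0.05. Was has opposite signs on the 2 alleles, and Cfp and Il2rg lie below 0 on both.

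The 9 measurable genes spanned a wide range of Cast shares. Over the 6 samples the mean share was 18.0% for Cybb, 16.6% for Irak1, 13.5% for Was and 9.85% for Cfp. It was 4.09% for Bcor, 2.66% for Ikbkg, 2.61% for Il2rg, 2.53% for Msn and 1.73% for Tlr7. This order holds for the pooled groups only: Cfp was above Was in naive cells and Was above Cfp in stimulated cells, and the Cybb mean averages its high and low replicates. The first 4 exceeded 85.7 to 93.0% of 230 X-linked genes that reached 10 reads in all 6 samples. The median share of those 230 genes lay between 2.34 and 3.78% in the 6 samples. The ranges over samples of Cybb, Irak1, Was and Cfp overlapped, as did those of Bcor, Ikbkg, Il2rg, Msn and Tlr7. The order within each set is thus not separated by the spread. The sets also met, since the lowest shares of Cfp (5.0%) and Cybb (2.76%) were below the highest of Bcor (6.03%). With a share of at least 10%, 10 reads and 3 Cast reads in each sample of a group, Irak1 and Cfp qualified in naive cells and Irak1 and Was in stimulated cells. That is 2 of 9 in each, against 8.94% of 246 X-linked genes in naive and 10.6% of 254 in stimulated cells. Cybb did not qualify because of replicate 3.

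**Figure D5:**
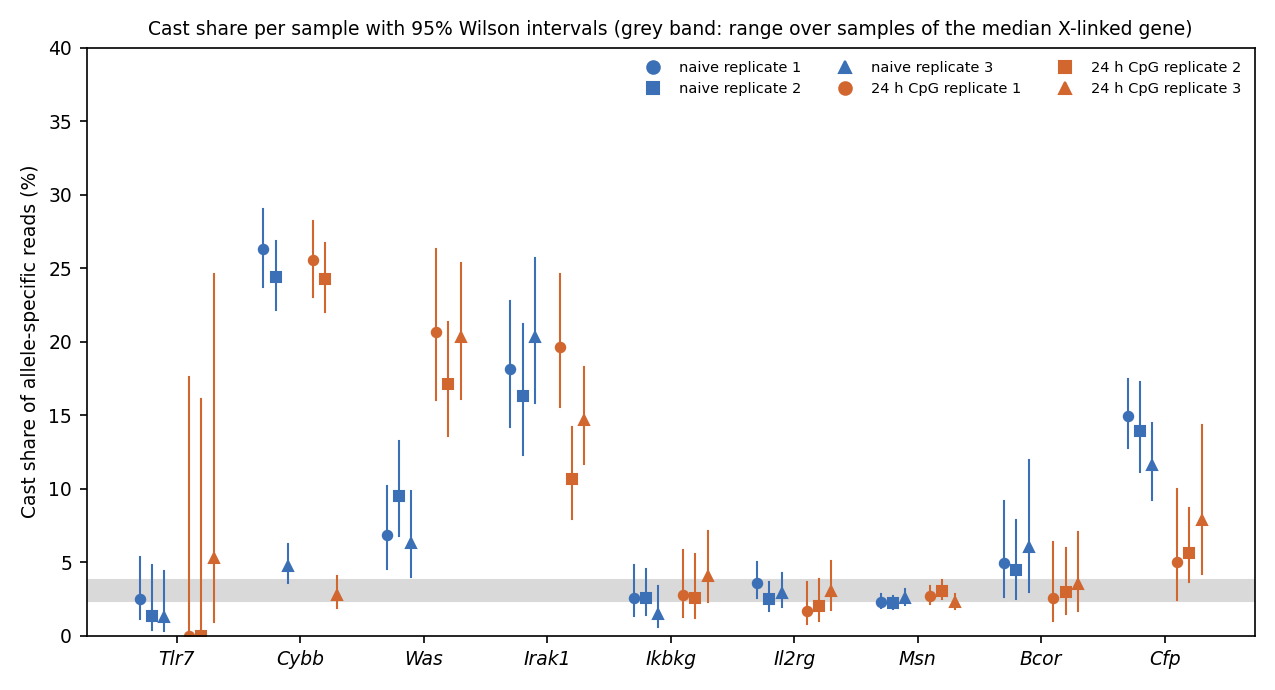
Cast share of each gene in every sample with its 95% Wilson interval, naive in blue and stimulated in orange, with a grey band from 2.34 to 3.78% for the median X-linked gene. Was rises from 6.30 to 9.52% up to 17.1 to 20.7%, Cfp falls from 11.6 to 14.98% down to 5.0 to 7.89%, and Cybb splits by replicate.

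The change of the share with stimulation was compared over samples. The shares of 4 of 9 genes did not overlap between the groups (Was, Cfp, Bcor and Ikbkg), against 12.6% of 230 X-linked genes, 8.7% with a higher and 3.91% with a lower share after stimulation. Each of these 4 had a two-sided exact permutation p of 0.1, the smallest that 3 against 3 samples can give. Was rose from 7.56% ± 1.73 to 19.4% ± 1.96 (SD, n = 3 each). Cfp fell from 13.5% ± 1.72 to 6.18% ± 1.52, lower in all 3 same-numbered pairs. Bcor went from 5.17% ± 0.790 to 3.01% ± 0.469 on 4 to 11 Cast reads per sample. For Ikbkg the difference, 2.19% ± 0.642 against 3.13% ± 0.810, rested on a gap between 2.58 and 2.59%. Without stimulated replicate 3, 7 of the 9 genes did not overlap, against 19.1% of the 230, and without both samples numbered 3 it was also 7, against 30.9%.

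A test of the Cast to 129 ratio in edgeR, fitted over 10364 genes on all chromosomes with a term for each sample, called 1 of the 9 genes, Was. Over all genes 0.917% passed, with 0.482% toward Cast and 0.434% toward 129, and 0.727% of 275 X-linked genes, all toward Cast. The ratio of Was rose by 1.55 on the log2 scale (SE 0.23, adjusted p = 0.0334 in edgeR). The ratio of Cfp changed by -1.26 (SE 0.22, adjusted p = 0.0539 in edgeR), just outside the threshold. With the replicate block both passed, Was at 1.53 (adjusted p = 5.19e-06 in edgeR) and Cfp at -1.30 (adjusted p = 0.000588 in edgeR), against 7.52% of all genes (3.83% toward Cast and 3.69% toward 129) and 4.36% of X-linked genes. In each of the 9 fits with samples left out the Was call was lost, with adjusted p from 0.0587 to 0.238 in edgeR and a change of 1.38 to 1.87. Fitted over X-linked genes alone it had an adjusted p of 0.304 in edgeR, or 0.140 with the block. For Cybb the change of -0.17 had an SE of 1.41, and Tlr7 had too few Cast reads for a usable value. For Irak1, Ikbkg, Il2rg, Msn and Bcor the adjusted p lay between 0.556 and 0.746 in edgeR, and the changes were between -0.76 and 0.54. In simulated data this ratio test recovered 11% of 2-fold and 88% of 4-fold changes. The changed genes there were drawn from well-counted genes on all chromosomes. Recovery at the low Cast shares of Ikbkg, Il2rg, Msn and Bcor was not measured, so these percentages do not apply to them.

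Some X-linked genes had Cast shares close to those of these genes in all 6 samples. By mean absolute difference, the closest of 184 was Sms for Was (4.38 percentage points), Snx12 for Cfp (2.06) and C330007P06Rik for Irak1 (2.26). For Cybb it was Atrx, still 7.54 points away, because Atrx held 21.5 to 25.8% in all samples. The low genes had close matches, with Ebp 0.290 points from Msn, P2ry10 0.526 from Il2rg and 0.655 from Ikbkg, and Phf6 0.623 from Bcor.

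The authors' deposited table of 104 genes holds 8 of the 10 genes, without Tlr7 and Btk, and allows levels to be set against each other per length. In naive cells the mean over both alleles in the authors' deposited table was 264 RPKM (reads scaled by gene length and library size) for Msn, 173 for Il2rg, 164 for Cfp and 83.4 for Cybb. It was 57.2 for Was, 25.4 for Irak1, 20.6 for Ikbkg and 10.95 for Bcor. After stimulation the authors' deposited table gave 159 for Msn, 63.8 for Cybb, 57.8 for Il2rg, 43.9 for Was and 39.0 for Cfp. These are means without a spread, so neighbours in the order cannot be separated. The ratio of inactive to active X chromosome in the authors' deposited table went from 0.0700 to 0.208 for Was and from 0.135 to 0.0555 for Cfp.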

How the data were processed

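RNA was isolated with TRIzol and sequenced with the Illumina TruSeq Stranded Total RNA LT kit, per the labels' protocols. Each of the 6 samples had 2 deposited tables of raw counts per gene, for the 129S1/SvImJ and the CAST/EiJ annotation, per the file contents. The submitters' processing notes name STAR, featureCounts, Subread 2.0.0 and mm10. How a read was given to a strain is not given in the sources used here. Summary rows, among them 44.5 to 67.1% of aligned reads in no gene, stayed out of library sizes. The authors' deposited table of group means held RPKM values, SRPM values (a score scaled per sample total, per the file headers) and their ratio. All 32 SRPM values of the genes here were recomputed from the counts within a relative tolerance of 0.001.

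Each allele's counts were tested in edgeR 4.0.16 (R version 4.3.3) with its quasi-likelihood test, TMM, filterByExpr and Benjamini-Hochberg adjustment over all tested genes. CPM values are TMM-scaled. The ratio test took genes whose 2 alleles summed to 10 or more reads in 3 or more samples. Fits were tested on simulated data. DESeq2 1.42.0 and other settings are described in the closing section. Wilson intervals (95%) and limits for a count of 0 (3 reads) cover counting error only, since reads are not independent molecules. Xist stayed out of the counts of X-linked shares. Coordinates are from RefSeq on GRCm38 and not from the strain annotations.

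The genes and all lists were chosen with earlier results of these data known. Of each partner list the called gene with the largest rise and that with the largest fall on the 129 allele are named. Some genes that these rules select are not reported here. The nearest measured gene on either side and the gene with the closest Cast share were found for each gene, and those named here are examples. Same-numbered naive and stimulated samples deviated together from their group means (r of 0.566, 0.447 and 0.612 in the 129 tables and 0.240, 0.170 and 0.255 in the Cast tables). The sample titles give the replicate numbers, but the labels do not say that they pair samples. The main tests therefore had no replicate block, and fits with the block are given as alternatives.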

Additional observations from a re-analysis of the deposited data

Results flagged for a closer look

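The change with 24 h CpG differed between the alleles of Was, by 1.55 on the log2 scale of the Cast to 129 ratio (SE 0.23, adjusted p = 0.0334 in edgeR, higher in 3 of 3 same-numbered pairs). The difference itself was tested, as the allele by treatment term of the ratio fit. The call was lost in all 9 fits with samples left out (adjusted p from 0.0587 to 0.238 in edgeR) and over X-linked genes alone (0.304, or 0.140 with the replicate block). With all samples and all chromosomes it held in DESeq2 (adjusted p = 0.00472 in DESeq2) and with the replicate block. It also held with other read minimums and with a library size for each allele. Cfp came closest of the others, at -1.26 (adjusted p = 0.0539 in edgeR).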

How the results depend on the processing

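Over all alternatives 208 of 210 recomputed fold changes of the genes kept their direction, and 188 kept their call while 22 gained or lost it. The 2 that turned direction were called in neither fit. With samples left out, the log2 change of Bcor on the 129 allele ranged from -0.33 to 0.075 and that of Cybb on the Cast allele from -0.77 to 0.22. In the ratio test, where both are also uncalled, Cybb ranged from -0.98 to 0.77 and Tlr7 from -1.57 to 1.27.

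The ratio test called 95 genes. It called 146 in DESeq2, 779 with the replicate block, 0 over X-linked genes alone and 1 over these with the replicate block, and 0 to 26 with samples left out. Of the genes described here it called 1, and 0 to 0 with samples left out. It called 0 over X-linked genes alone, 0 with the replicate block added to that, 2 with the replicate block and 2 with at least 1 read in any sample. With samples left out, 2 to 4 were called on the Cast allele, against 50.2 to 59.0% of all tested genes. Genes without overlap of the Cast share numbered 4 to 7 with samples left out, against 19.1 to 35.2% of 230 X-linked genes, and reads summed over a group give no such count. A Cast share of at least 20% was reached in every sample of a group by 0 of them in naive and 0 in stimulated cells. Among these genes the replicate block changed no call other than those of Cybb and Cfp given with them. Partner counts under the block, here and above, stand without the share of all tested genes called under it. The block moved the number of WASP partners called lower on the Cast allele from 2 to 5. The cause of these differences was not tested. The pairs of same-numbered samples left out together, and X-linked genes alone with the block, were chosen after seeing the data. Depth limits the Cast allele of Tlr7, Ikbkg and Bcor, with 0 to 11 reads per sample, and both alleles of Btk.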
